A study of Drosophila melanogaster with 18 samples.

Results

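Genes for building and operating cilia were examined as a set of 34 members, chosen by name for their roles. Earlier results of these data were known when they were chosen. The members were drawn from intraflagellar transport, the BBSome, the basal body and transition zone, mechanosensory channels and their cap, ciliary transcription factors, and axonemal dyneins with their assembly factors. All 34 were found among the 17753 genes of the exon count tables, with 388 of the 87508 exon records. The tables come from translating ribosome affinity purification (TRAP), in which fru P1-Gal4 drives a GFP-tagged ribosomal protein, RpL10A, and ribosome-bound mRNA is pulled down through the tag. Drosophila melanogaster pupae were collected whole at 48 hr after puparium formation (APF), about 1000 of 1 sex per sample, so that RNA from any tissue in which the transgenes were active could be purified. All animals carried UAS-Gal4, UAS-GFP::RpL10A and fru P1-Gal4 over a wild-type chromosome, in a w background, and there was no group without the tag. The groups were male TRAP (n = 5), female TRAP (n = 4), male total mRNA (n = 5) and female total mRNA (n = 4), where total mRNA is the input of the same lysates.

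A cilium is a microtubule axoneme that grows from a basal body and is closed off from the cell body by a transition zone. In Drosophila it is found in a few cell types: sensory neurons, whose dendrites end in a cilium carrying transduction channels, and male germ cells, whose sperm tail is a very long motile axoneme. Sensory cilia need intraflagellar transport (IFT), a motor-driven shuttle inside the cilium, whereas the fly sperm tail is assembled in the cytoplasm without it. Axonemal dyneins bend the axoneme in sperm and in the cilia of chordotonal stretch receptors.

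Each member was given 1 value per library, the sum of the reads of its non-overlapping exon records, printed as CPM, the share of a library's reads on the usual per-million scale, after TMM scaling, which sets libraries on a common scale by trimming the genes that differ most. Library totals lay between 24901633 and 67491630 counts, and male TRAP replicates 1 and 5 stood apart from the other male TRAP libraries in male germline RNA. B9d2 and tectonic share all 3 of their records on 1 strand and had identical counts, so their values are 1 measurement under 2 names. Another 11 members have records that overlap a different gene, and for those records the reads cannot be divided between the genes. The filter for testing, over 2 CPM in 60% of the libraries of at least 1 group, was passed by 28 members among 12251 genes. BBS1, Arl6, Mks1, nompC, nan and fd3F did not pass it. Of the 28, 12 passed in all 4 groups, 7 passed only through male libraries (btv, unc, Cby, B9d1, Dhc16F, Dhc62B and gudu) and 4 only through TRAP libraries (Oseg2, BBS5, BBS8 and iav), so a difference was built into the choice of the members that passed in this way.

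**Figure D1:**
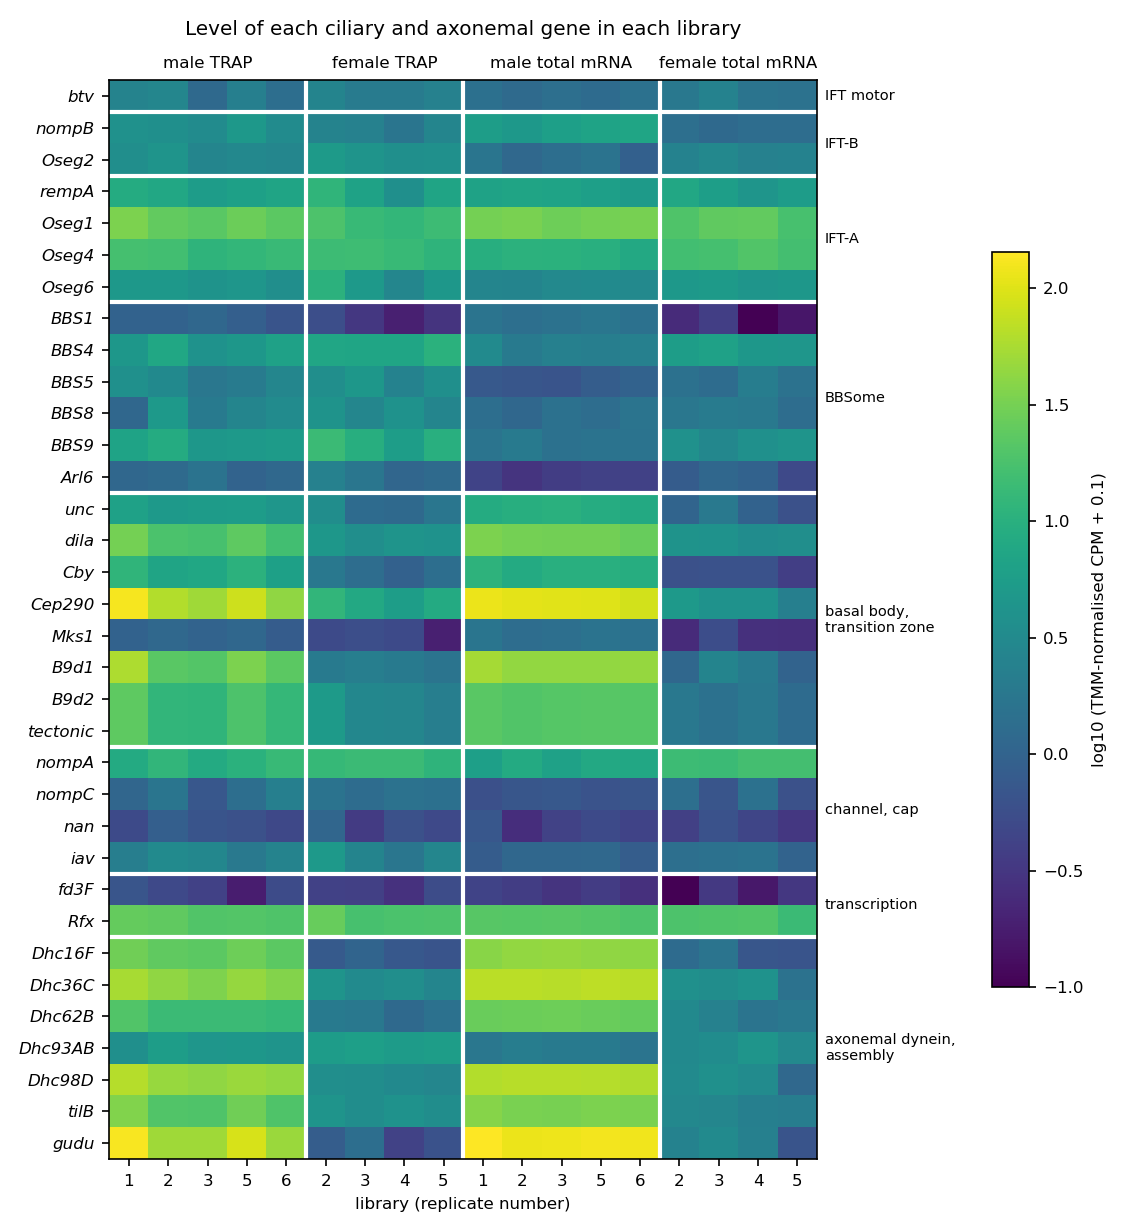
Each row is a member gene, grouped by role, and each column a library, grouped as male TRAP, female TRAP, male total mRNA and female total mRNA. Colour gives log10 of TMM-normalised CPM plus 0.1. Transition zone and axonemal dynein genes other than Dhc93AB are brighter in the male libraries than in the female ones, with Mks1 dim in both. BBSome genes are on average brighter in the TRAP libraries than in total mRNA of the same sex, with the exception of BBS1 in males.

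The largest differences among the members were between the sexes. In the edgeR quasi-likelihood test with Benjamini-Hochberg adjustment over all genes (called at an adjusted p under 0.05), 15 members were higher and 3 lower in male TRAP than in female TRAP. Over all genes 32.9% were called higher and 37.2% lower in that comparison. In total mRNA 15 members were higher and 8 lower in males, beside 32.7% and 58.0% of all genes. The 15 of each fraction include unc, Cby, B9d1, Dhc16F, Dhc62B and gudu, which passed the filter only through male libraries. For these a sex difference was built into their choice. The median log2 fold change of the tested members was 0.78 in TRAP and 1.43 in total mRNA, against -0.15 and -0.64 over all genes. How far the typical gene lay below 0 depends on the scaling, as given further on, and small changes are read relative to it. In these bulk samples fewer cells of a type and less RNA per cell cannot be told apart.

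The axonemal dynein group carried the widest sex differences, with 6 of 7 members higher in males in both fractions. gudu (chromosome 2L, 7388508 to 7390902 in dm6), an Armadillo repeat gene needed for spermatogenesis, had 133.0, 51.3, 50.3, 92.3 and 47.9 CPM in male TRAP, against 0.752, 1.29, 0.320 and 0.516 CPM in female TRAP. In total mRNA gudu had 143.1, 117.2, 119.5, 126.4 and 122.5 CPM in males and 2.42, 3.18, 2.24 and 0.562 CPM in females. The sexes did not overlap in either fraction, as for 15 members in TRAP (54.4% of all genes) and 24 in total mRNA (89.2% of all genes), and male TRAP replicates 1 and 5 held more gudu RNA than the other male TRAP libraries. The log2 fold change, male over female, was 6.70 ± 0.48 (SE; adjusted p = 1.2e-09) in TRAP and 5.91 ± 0.45 (adjusted p = 1.7e-09) in total mRNA. As gudu passed the filter only through male libraries, a sex difference was built into its choice.

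The axonemal dynein heavy chains, the ATP-driven motor subunits of the axoneme, differed among themselves. Dhc98D had 62.9, 46.4, 42.9, 47.5 and 43.9 CPM in male TRAP and 3.56, 3.38, 3.02 and 2.72 CPM in female TRAP. Dhc36C averaged 43.1 ± 7.7 CPM in male TRAP (SD, n = 5) and 3.40 ± 0.68 CPM in female TRAP (SD, n = 4). Dhc16F averaged 25.5 ± 3.3 CPM in male TRAP and 0.710 ± 0.17 CPM in female TRAP. In these genes the lowest male library was above every female one, and their log2 fold changes in TRAP were 3.95 ± 0.22, 3.67 ± 0.21 and 5.18 ± 0.21. Dhc62B followed the same order with 14.9 ± 2.7 CPM in male TRAP and 1.51 ± 0.34 CPM in female TRAP. Dhc16F and Dhc62B passed the filter only through male libraries, so a sex difference was built into their choice too. Dhc93AB was the exception among the heavy chains. It had 3.60, 5.55, 4.45, 4.55 and 4.18 CPM in male TRAP and 5.47, 5.95, 5.26 and 5.68 CPM in female TRAP, with overlapping sexes and a log2 fold change of -0.32 ± 0.13 (adjusted p = 0.041). That call was lost in 9 of the 18 fits that left out 1 library. tilB, which serves the assembly of dynein arms in the cytoplasm, averaged 24.7 ± 7.7 CPM in male TRAP and 3.75 ± 0.39 CPM in female TRAP.

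**Figure D2:**
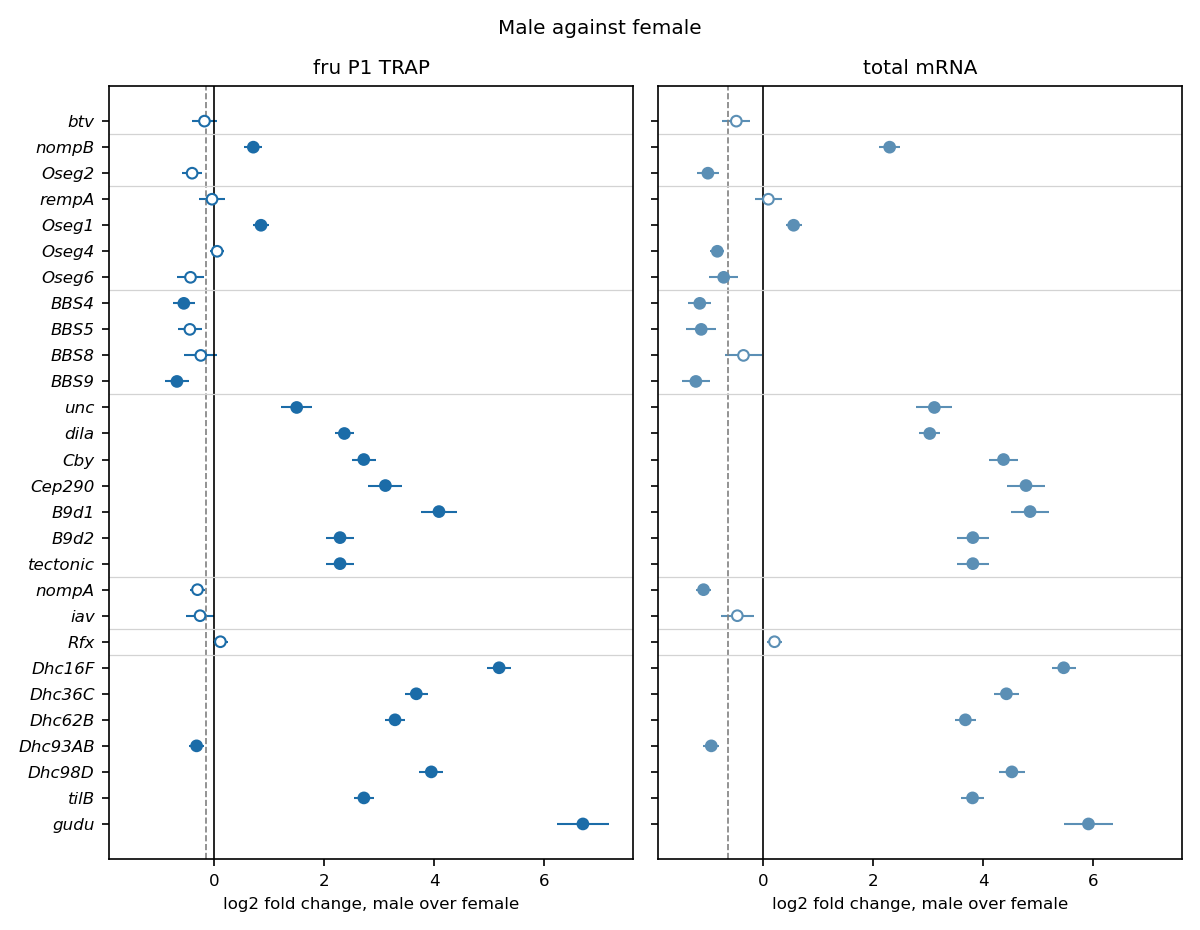
Log2 fold change of each tested member, male over female, in fru P1 TRAP (left) and in total mRNA (right). Points are the fitted values with their standard errors, filled where the adjusted p was under 0.05, and the dashed line marks the median of all 12251 genes. Basal body, transition zone and axonemal genes lie at 1.50 and above in both panels apart from Dhc93AB, while BBSome genes lie below 0.

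The 7 tested basal body and transition zone genes were called higher in males in each fraction, though for unc in TRAP and for B9d2 and tectonic this rests on records that overlap other genes. As unc, Cby and B9d1 passed the filter only through male libraries, a sex difference was built into their choice. B9d2 and tectonic are 1 measurement. Cep290 (chromosome 3L, 843926 to 851080 in dm6), which links the axoneme to the membrane in the transition zone, had 130.2, 61.4, 51.4, 82.0 and 42.4 CPM in male TRAP and 12.0, 7.93, 5.67 and 8.30 CPM in female TRAP. In total mRNA it averaged 103 ± 10 CPM in males and 3.78 ± 1.2 CPM in females. B9d1, a B9-domain protein of the same zone, had 58.3, 22.4, 20.4, 34.4 and 23.2 CPM in male TRAP and 1.91, 2.17, 1.87 and 1.55 CPM in female TRAP. As for gudu, male TRAP replicates 1 and 5 were the highest for both genes. The log2 fold change in TRAP was 3.11 ± 0.31 (adjusted p = 7.3e-08) for Cep290 and 4.08 ± 0.33 (adjusted p = 4.2e-09) for B9d1. Per kilobase of exon, B9d1 reached 36.0 CPM and gudu 33.3 CPM per kb in male TRAP, and tilB was at 18.2, Cby at 13.7 and Cep290 at 11.4 CPM per kb. These were the 5 highest means of the set there, and between neighbours in that order the SD spans the gap, so they are not ranked.

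Cby, dila and unc, which act at the basal body and in forming the transition zone, differed by less. Cby averaged 8.55 ± 2.4 CPM in male TRAP and 1.28 ± 0.34 CPM in female TRAP, dila 21.1 ± 6.4 and 4.09 ± 0.43 CPM. For unc the values were 6.26, 4.92, 5.24, 5.46 and 4.39 CPM in male TRAP and 3.42, 1.17, 1.1 and 1.64 CPM in female TRAP, and its log2 fold change of 1.50 ± 0.29 was the smallest of the group. Of the records of unc, 1 overlaps genes on the opposite strand, and without it the value was 0.67 (adjusted p = 0.13), which is not called. B9d2 and tectonic, at 15.6 ± 5.2 CPM in male TRAP and 3.19 ± 1.3 CPM in female TRAP, lay between. Of Cby's 3 records 2 overlap a gene on the opposite strand, and no record of B9d2 or tectonic is their own. Mks1, another transition zone gene, was too low for the test, at 0.738 to 1.06 CPM in male TRAP and 0.0898 to 0.477 CPM in female TRAP, with no overlap between the sexes.

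Transport genes were divided. nompB, the fly IFT88 and a core subunit of the IFT-B complex, averaged 3.74 ± 0.62 CPM in male TRAP and 2.26 ± 0.46 CPM in female TRAP, a log2 fold change of 0.71 ± 0.16 (adjusted p = 9.3e-04). In total mRNA nompB had 5.61, 4.70, 5.95, 6.59 and 7.17 CPM in males and 1.32, 1.1, 1.24 and 1.24 CPM in females. The IFT-A gene Oseg1 was also higher in males, by 0.85 ± 0.15 in TRAP and 0.55 ± 0.15 in total mRNA on the log2 scale. Oseg2 (IFT172), the IFT-A genes rempA, Oseg4 and Oseg6, and btv, the heavy chain of the retrograde IFT motor, were not called in TRAP, with log2 fold changes from -0.43 to 0.05. In the BBSome, a membrane protein coat carried by IFT, BBS4 and BBS9 were lower in male TRAP (log2 fold changes of -0.55 ± 0.20 and -0.68 ± 0.22), BBS5 and BBS8 were not called, and the sexes overlapped for all 4. The call of BBS4 was lost without male TRAP replicate 6 (-0.40) or female TRAP replicate 5 (-0.39), and that of BBS9 without male TRAP replicate 6 (-0.42) or female TRAP replicate 2 (-0.44). BBS1 departed from them with 0.562 to 1.05 CPM in male TRAP and 0.0914 to 0.479 CPM in female TRAP, from at most 31 reads a library and with records shared with Acbp4 on the opposite strand.

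The male libraries also held male germline RNA. The 28 markers of that list summed to 15153, 5732, 5126, 9531 and 5084 CPM in male TRAP, against 537, 414, 437 and 334 CPM in female TRAP. In total mRNA they summed to 9112 to 13227 CPM in males and 132 to 464 CPM in females. All 27 tested markers were higher in males in both fractions, none was at 0 in every library of a group, and in female TRAP 1 of the 28 stayed under 3 counts in every library. The summed members followed the same order of male TRAP libraries at the top, with 755, 474, 412, 567 and 417 CPM in replicates 1, 2, 3, 5 and 6. The part of germline RNA in the members' sex differences was not tested. Without replicates 1 and 5, chosen after seeing the data, the count of members higher in male than in female TRAP was 15.

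**Figure D3:**
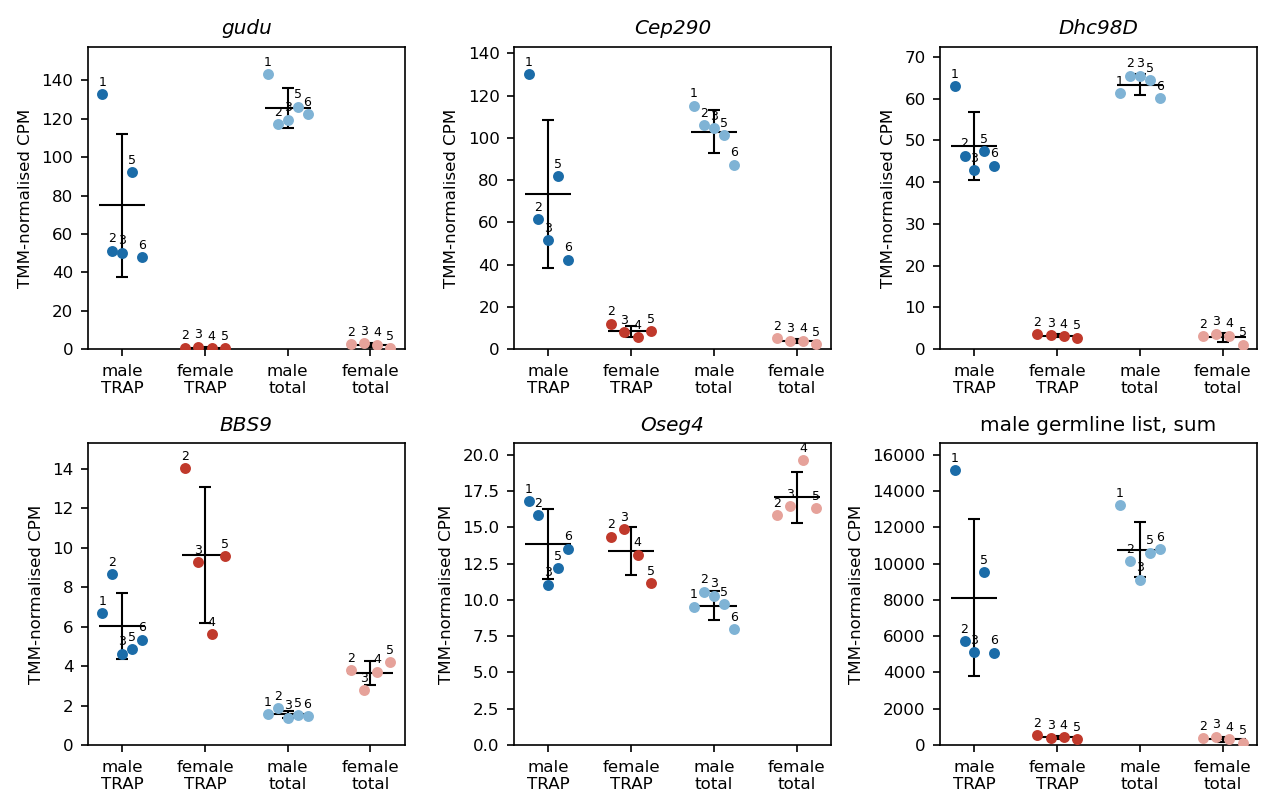
TMM-normalised CPM of 5 members and the summed male germline list in each library (points, with replicate numbers), with the group mean and SD as bars. Male TRAP replicates 1 and 5 are the highest of their group for gudu, Cep290, Dhc98D and the germline sum, but not for BBS9.

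TRAP against total mRNA compares the RNA recovered through the tagged ribosomes with the RNA of the whole pupa. As there was no group without the tag, RNA carried over from untagged cells cannot be told apart from that of tagged cells. In males 11 members were higher and 8 lower in TRAP, where 37.0% and 28.6% of all genes were called. That balance depended on the scaling. It was 7 higher and 15 lower under RLE size factors, a scaling by median ratios, and 10 higher and 14 lower with library totals. The median log2 fold change of all genes moved too, to -0.31 under RLE and -0.10 with library totals. The shares of all genes called under these 2 scalings are not given, so the shift is not read as particular to the members. In females 13 were higher and 3 lower, beside 17.5% and 35.9% of all genes. The libraries of the fractions did not overlap for 13 members in males, beside 49.3% of all genes, and for 14 in females, beside 47.8%. The members' median log2 fold change was -0.20 in males and 0.45 in females, and that of all genes 0.00 and -0.27. Of the neuron markers, 15 of 15 tested were higher in male TRAP and 13 of 15 in female TRAP, with median log2 fold changes of 1.77 and 1.07. Fat body markers were enriched by more, with 8 of 9 higher in males and 7 of 9 in females, and medians of 3.90 and 4.49.

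All 4 tested BBSome members were higher in TRAP in both sexes. Of these, BBS5 and BBS8 passed the filter only through TRAP libraries, so a difference was built into their choice. BBS9 had 6.67, 8.66, 4.63, 4.86 and 5.34 CPM in male TRAP and 1.55, 1.87, 1.39, 1.51 and 1.47 CPM in male total mRNA. In females it had 14.1, 9.29, 5.62 and 9.58 CPM in TRAP and 3.81, 2.77, 3.72 and 4.22 CPM in total mRNA. TRAP lay above total mRNA in every library of both sexes, by log2 1.96 ± 0.23 (adjusted p = 1.3e-06) in males and 1.41 ± 0.25 (adjusted p = 1.4e-04) in females. BBS5 rose by 1.90 ± 0.24 and 1.22 ± 0.26, BBS4 by 1.2 ± 0.19 and 0.60 ± 0.21, and BBS8 by 1.12 ± 0.30 and 1.00 ± 0.34 in males and females. These 8 calls were made under all scalings tried. Of the records of BBS4, 1 overlaps CG13229 on the opposite strand, and without that record its female value was 0.22 (adjusted p = 0.46). The female call of BBS4 was also lost without TRAP replicate 5 (0.44) or total mRNA replicate 4 (0.54) or 5 (0.52), and that of BBS8 without TRAP replicate 2 (0.88) or total mRNA replicate 5 (0.88). The counts of members higher in TRAP include the 4 that passed the filter only through TRAP libraries, BBS5, BBS8, Oseg2 and iav. In males they also include btv, which passed through male TRAP alone. Arl6, the GTPase that recruits the BBSome to membranes, was below the filter, with 0.910 to 1.48 CPM in male TRAP and 0.199 to 0.336 CPM in male total mRNA. BBS1 went the other way in males, with 0.562 to 1.05 CPM in TRAP and 1.32 to 1.62 CPM in total mRNA.

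Other members with TRAP enrichment in both sexes were Oseg2, iav and Dhc93AB. iav, a TRPV channel subunit of chordotonal cilia, averaged 2.46 ± 0.53 CPM in male TRAP and 0.922 ± 0.17 CPM in male total mRNA, and 2.93 ± 1.4 CPM in female TRAP and 1.27 ± 0.26 CPM in female total mRNA. Its log2 fold changes were 1.43 ± 0.26 and 1.22 ± 0.30 in males and females. For Dhc93AB they were 1.33 ± 0.13 and 0.70 ± 0.15, and for Oseg2 1.34 ± 0.19 and 0.74 ± 0.21. Dhc93AB was thereby the only axonemal heavy chain of the 5 called higher in TRAP in either sex. The other channel genes were near the limit of the depth: nan, the partner of iav, had 0.386 to 0.805 CPM in male TRAP and 0.159 to 0.620 CPM in male total mRNA, and nompC, a TRPN channel, 0.611 to 2.21 and 0.491 to 0.635 CPM. fd3F, a forkhead factor of chordotonal neurons, had 2 to 14 reads per male TRAP library. Rfx, the general ciliary transcription factor, had 21.8 ± 2.9 CPM in male TRAP, 20.2 ± 4.4 CPM in female TRAP, 20.7 ± 1.1 CPM in male total mRNA and 17.9 ± 2.6 CPM in female total mRNA, and none of its 4 gene-level comparisons passed the threshold with TMM. With RLE size factors (0.80) or library totals (0.63) Rfx was called higher in male than in female total mRNA, and with library totals (0.41) or TMM within each sex (0.41) higher in female TRAP than in female total mRNA.

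The 12 sensory neuron markers, mostly chemoreceptor and ion channel genes, summed to 51.3 to 85.6 CPM in male TRAP and 35.3 to 37.1 CPM in male total mRNA, and to 89.8 to 101 CPM in female TRAP and 70.6 to 86.7 CPM in female total mRNA. Of the 5 that passed the filter, 4 were called enriched in males and 2 in females. Their part in the enrichment of BBSome and channel genes was not tested.

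**Figure D4:**
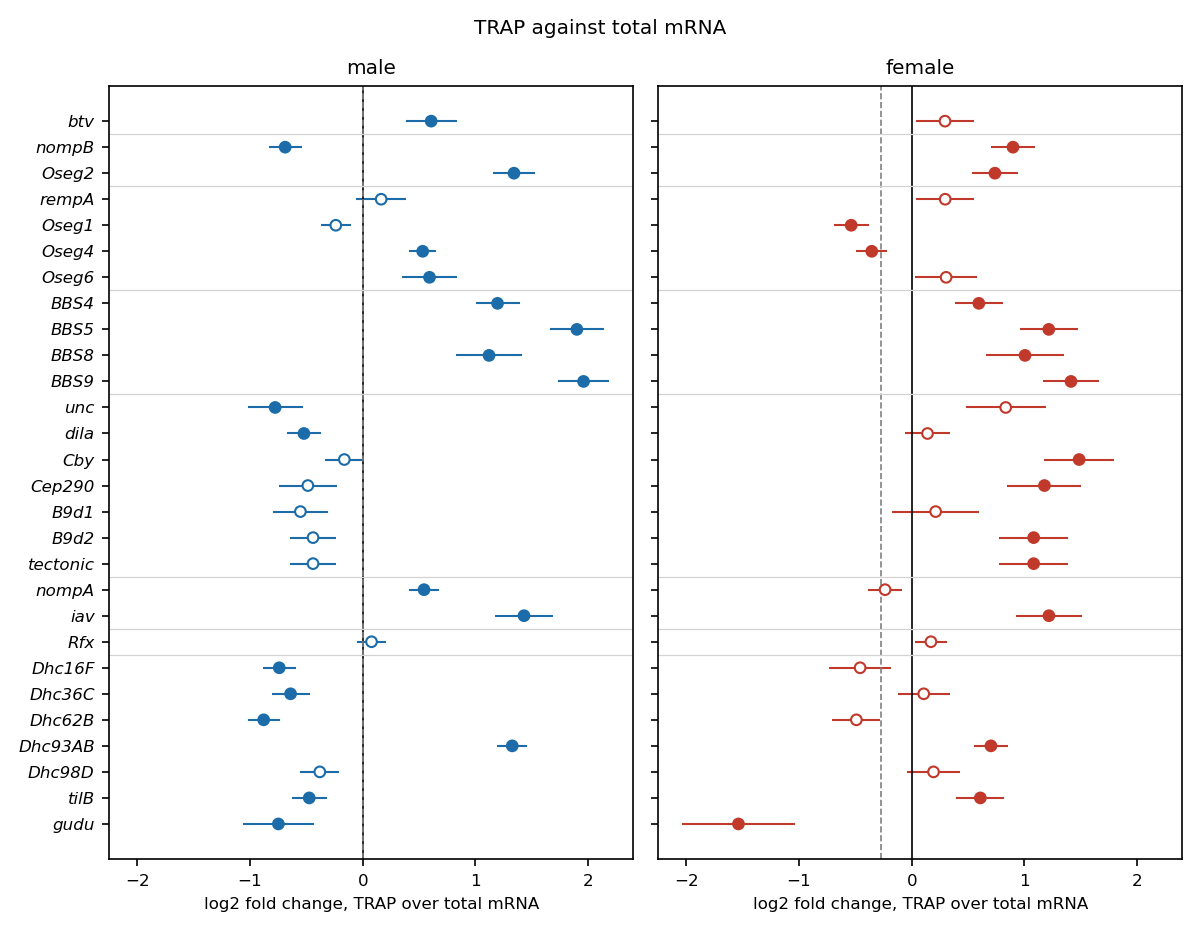
Log2 fold change of each tested member, TRAP over total mRNA, in males (left) and females (right). Points are fitted values with their standard errors, filled where the adjusted p was under 0.05, and the dashed line marks the median of all genes. The 4 BBSome genes lie above 0 in both panels, and the basal body and transition zone genes lie below 0 in males and above 0 in females.

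Most axonemal genes were below total mRNA in male TRAP. Beside Dhc93AB, which was higher, 5 of 7 axonemal genes were called lower, with Dhc62B lowest at -0.88 ± 0.14 (adjusted p = 4.5e-05), Dhc16F at -0.74 ± 0.14 and Dhc36C at -0.64 ± 0.17. gudu, at -0.75, kept its call in 7 of the 18 fits that left out 1 library. Of the basal body and transition zone genes, unc (-0.78 ± 0.24) and dila (-0.52 ± 0.15) were called lower, and the other 5 were not called, with values from -0.55 to -0.16. nompB was lower as well (-0.69 ± 0.15). Without male TRAP replicate 1 the count lower was 14. Without replicates 1 and 5, chosen after seeing the data, it was 15, with Cep290 at -0.995 and B9d1 at -1.08. The values from all libraries were -0.49 and -0.55. With the lysate as a block, which pairs TRAP and total mRNA, 13 were lower, Cep290 at -0.60 among them. The shares of all genes called in these fits are not given, so these counts are not read as particular to the members. The part of germline RNA in them was not tested. Male germline markers had a median log2 fold change of -0.51 in male TRAP against male total mRNA. Of the 27 tested, 6 were called lower and 21 were not called, beside 28.6% of all genes called lower.

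In females the 7 tested basal body and transition zone genes had positive values, and 4 were called higher in TRAP. Cep290 had 12.0, 7.93, 5.67 and 8.30 CPM in female TRAP and 4.98, 3.93, 4.01 and 2.19 CPM in female total mRNA, without overlap, a log2 fold change of 1.18 ± 0.33 (adjusted p = 6.2e-03). Cby (1.49 ± 0.31), B9d2 and tectonic (1.08 ± 0.30), nompB (0.90 ± 0.20) and tilB (0.61 ± 0.21) were higher too. Cby had only 5 to 9 reads per library in female total mRNA. Without its overlapping records Cby was at 0.07 (adjusted p = 0.97), and B9d2 and tectonic could not be measured. The call of tilB was lost without TRAP replicate 2 (0.55) or 4 (0.58) or total mRNA replicate 4 (0.56) or 5 (0.54). gudu was lower, with 0.752, 1.29, 0.320 and 0.516 CPM in female TRAP and 2.42, 3.18, 2.24 and 0.562 CPM in female total mRNA, where replicate 5 of total mRNA fell within the TRAP range. Its log2 fold change was -1.54 ± 0.50 (adjusted p = 0.016), from 7 to 35 reads per TRAP library. Oseg1 and Oseg4 were lower (-0.54 ± 0.16 and -0.35 ± 0.14), close to the median of all genes. Without total mRNA replicate 3 or TRAP replicate 5 the count lower in females was 1, and without total mRNA replicate 5 it was 5.

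Whether enrichment differed between the sexes was tested directly, as the male minus the female log2 fold change of TRAP over total mRNA. It was lower in males for 9 members and higher for 3, beside 6.27% and 42.0% of all genes. The members' median was -0.11, and the median of all genes 0.49. The 9 were Cep290 (-1.66 ± 0.42, adjusted p = 4.5e-03), Cby (-1.65 ± 0.36), unc (-1.61 ± 0.43), nompB (-1.59 ± 0.25), B9d2 and tectonic (-1.52 ± 0.37), tilB (-1.08 ± 0.26), Dhc36C (-0.75 ± 0.29) and dila (-0.66 ± 0.25), and they were called under all 4 scalings. Dhc36C and dila lost the call in 10 and 8 of the 18 fits that left out 1 library. With records overlapping another gene left out, 5 were lower. B9d2 and tectonic could not then be measured, Cby (-0.70), dila (-0.61, adjusted p = 0.068) and Dhc36C (-0.70, adjusted p = 0.066) were no longer called, and Dhc62B, at -0.39 from all its records, was called at -1.20 (adjusted p = 0.012). The 3 higher, Oseg4 (0.89 ± 0.18), nompA (0.78 ± 0.20) and Dhc93AB (0.62 ± 0.20), lay closer to the median of all genes. Oseg4 was not called with RLE size factors, and nompA and Dhc93AB were called with TMM over all libraries but under none of the other scalings. nompA encodes part of the cap that ties sensory dendrites to the cuticle. Without female TRAP replicate 2 the count higher was 6, and without male total mRNA replicate 1 it was 5.

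How the typical gene moved was set in part by the scaling. For male against female total mRNA the median over all genes was -0.64 (TMM), -0.06 (RLE size factors) or -0.23 (library totals). For the sex difference in enrichment it was 0.49 with TMM, 0.04 with RLE, 0.24 with TMM within each sex and 0.16 with library totals. For male TRAP against total mRNA it was 0.00 with TMM and -0.31 with RLE, and for females -0.27 and -0.14. Members called in 1 direction under all scalings were 15 higher in males in each fraction, and 4 lower in male total mRNA (BBS4, BBS9, nompA and Dhc93AB). For male TRAP against male total mRNA they were 7 higher (BBS4, BBS5, BBS8, BBS9, Oseg2, iav and Dhc93AB) and 8 lower, and for females 13 higher and, as the single lower one, gudu. In male against female TRAP, BBS9 alone was lower under all of them.

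Along the transcripts the male TRAP to total mRNA ratio was not constant. With single exon records tested as the study did (edgeR exact test, false discovery rate under 0.2, records over 2 CPM in 60% of the libraries compared), 17 members had a tested record, 4 had a record higher (Oseg1, Oseg4, nompA and Rfx) and 12 a record lower in male TRAP, beside 43.5% and 50.0% of the genes tested. Of the 6 members with 3 or more non-overlapping records tested, all had a higher log2 fold change at the 3′-most record than at the 5′-most. For Cep290 the 5 records gave, from 5′ to 3′, -1.66, -1.02, -0.62, 0.16 and 0.26. gudu gave -1.91, -0.80 and 0.01, and Dhc36C gave -1.33, -0.99, -0.63 and 0.03. The rise was 1.91 for Cep290, 1.92 for gudu, 1.36 for Dhc36C, 1.23 for Dhc16F, 1.05 for Dhc98D and 0.65 for tilB, and the 3′-most record was not called in any of the 6.

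This slope was not particular to the members. Among all 2780 genes with 3 or more such records, 73.1% had the higher value at the 3′-most record, with a median rise of 0.50. In females 39.3% of 2294 genes did, and for male against female total mRNA 15.5% of 2141 genes. No member had 3 tested records in those comparisons. With the 3′-most record alone standing for each gene, an alternative added after the slope was seen, gudu was at -0.16, Dhc36C at -0.11, tilB at -0.23 and dila at -0.27 in male TRAP against total mRNA, and none of the 4 was called. Dhc62B (-0.76, adjusted p = 1.7e-04), unc (-0.71), nompB (-0.65) and Dhc16F (-0.34, adjusted p = 0.039) were still called lower. B9d2 and tectonic, not called from the gene sum, were called lower at -0.54 (adjusted p = 0.024). With the 3′-most record 15 members were higher in male than in female TRAP and 16 in total mRNA, while nompB, at 0.44 (adjusted p = 0.19), was no longer called in TRAP.

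**Figure D5:**
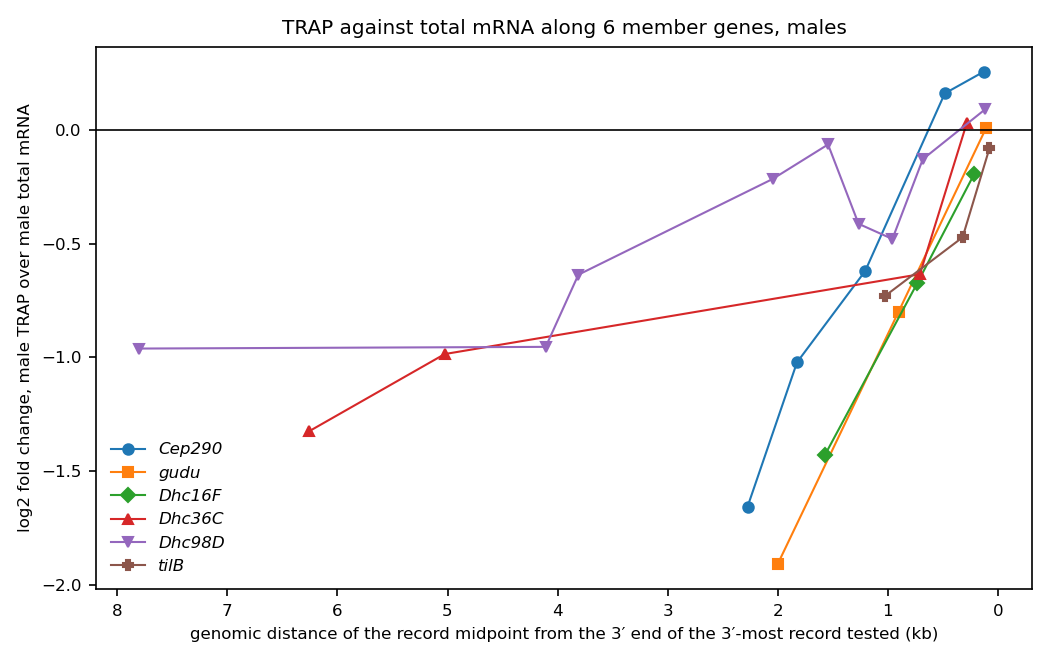
Log2 fold change of male TRAP over male total mRNA for single exon records of the 6 members with 3 or more records tested, against genomic distance (kb, introns included) of the record's midpoint from the 3′ end of the 3′-most tested record. Lines join the records of a gene. Values climb toward the 3′ end on the right, for gudu by 1.92 and for Cep290 by 1.91, while the 9 records of Dhc98D climb less evenly.

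In the exon record tests between the sexes few members were eligible, because a record had to pass 2 CPM in 60% of both sexes' libraries together, which male libraries alone could not fill. In male against female TRAP 10 members had a tested record, 5 with a record higher and 1 lower, beside 31.7% and 25.6% of genes. In total mRNA 4 were tested, with 2 higher and 1 lower, beside 47.3% and 46.2%. Without any 1 female library the 5 male ones met the filter by themselves, and the members with a record higher in males numbered 14 or 15 for TRAP and 16 for total mRNA. In female TRAP against female total mRNA 4 members were tested, with 1 higher (Rfx) and 3 lower (Oseg1, Oseg4 and nompA), beside 38.4% and 48.4%.

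Among other cilium and axoneme genes, from a separate list of 41 with 37 tested, 25 were higher and 7 lower in male than in female TRAP. Over all genes 32.9% and 37.2% were so called. The median log2 fold change was 1.92, against -0.15 over all genes. In male total mRNA 24 were higher and 10 lower (32.7% and 58.0% of all genes), with a median of 2.76 against -0.64. In male TRAP against male total mRNA 6 were higher and 18 lower (37.0% and 28.6% of all genes), with a median of -0.51 against 0.00. In females 2 were higher and 7 lower (17.5% and 35.9% of all genes), and the median of -0.25 was near the -0.27 of all genes. The sex difference in enrichment was higher for 6 and lower for 10 of them, beside 42.0% and 6.27% of all genes.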

How the data were processed

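RNA was sequenced from 18 libraries (poly(A) selection, directional kit, 100 bp single-end reads), and the authors mapped reads to dm6 with STAR 2.7.2a, then used featureCounts to assign those with a unique position to exon records. The files deposited by the authors hold whole-number counts, not normalized; the annotation release and strand setting are not given in the sources used here. A table of normalized values of the whole series was not used. A read was counted in each record it overlapped, so gene sums used 69946 non-overlapping records of 87508, longest first. Symbols came from the BDGP6.54 annotation and RefSeq synonyms, which matched tectonic.

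Genes were tested with edgeR 4.0.16 (R 4.3.3): 1 quasi-likelihood fit of 4 groups over all libraries, TMM, and Benjamini-Hochberg adjustment over all genes passing the filter. SE is the absolute log2 fold change divided by the square root of F. Exon records were tested as in the study's methods. The fits were tested on simulated data. TRAP and total mRNA of 1 replicate number were taken, from the sample titles, to come from 1 lysate within a sex. Their deviations correlated at 0.18 to 0.80. For male replicate 5 (0.270 against 0.269) and female replicate 4 (0.182 against 0.178) the best other number correlated nearly as well. The main fit did not pair them, and the replicate block did. Each replicate is a pool of pupae, and p-values measure the spread between pools. The members, lists and rules were chosen with earlier results of these data known, and all members are named. The lists of neuron, sensory neuron, glia, muscle, fat body, hemocyte, male germline and other cilium genes are given by counts and sums. Alternatives were RLE, library totals, TMM within each sex, no filter, DESeq2 1.42.0, all records summed, overlapping records left out, a replicate block, other thresholds and leaving out libraries.

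Glia markers (9 tested) had a median log2 fold change of 0.09 in male TRAP against total mRNA and -0.47 in females, hemocyte markers (9 tested) 0.14 and -0.55, and muscle markers (13 tested) -0.12 and -1.15.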

Additional observations from a re-analysis of the deposited data

Results flagged for a closer look

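In 10 of 136 sets of a member's libraries in 1 group, the highest or lowest library stood apart from the rest by Dixon's criterion, which chance alone meets in about 1 in 20 sets. In male TRAP replicate 1, the library with the most germline RNA, Dhc98D was at 62.9 CPM with the others at 42.9 to 47.5 CPM, and Dhc62B at 19.7 CPM with the others at 12.9 to 14.0 CPM. B9d1 was at 53.9 CPM in male total mRNA replicate 1, and the others lay at 43.8 to 45.4 CPM. Oseg1 in male total mRNA replicate 3 was low at 28.5 CPM. In female TRAP, BBS4 was high in replicate 5 at 10.3 CPM and Rfx in replicate 2 at 26.7 CPM. In female total mRNA, Oseg2 (2.89 CPM) and Mks1 (0.462 CPM) were high in replicate 3, Oseg4 was high in replicate 4 (19.6 CPM), and Cby was low in replicate 5 (0.281 CPM).

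For 12 members the enrichment in TRAP over total mRNA differed between males and females in the test of that difference itself. The male minus female log2 values were -1.66 for Cep290, -1.65 for Cby, -1.61 for unc, -1.59 for nompB, -1.52 for B9d2 and for tectonic, -1.08 for tilB, -0.75 for Dhc36C and -0.66 for dila. They were 0.89 for Oseg4, 0.78 for nompA and 0.62 for Dhc93AB.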

How the results depend on the processing

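Counts of members are given for gene tests, then exon records. The shares of all genes called are not given for these alternatives, so a count that moved is not read as particular to the members. With RLE size factors, 7 were higher and 15 lower in male TRAP than in male total mRNA, 1 lower in female TRAP than in female total mRNA, 1 lower in male than in female TRAP, 4 lower in male than in female total mRNA, and for the sex difference in enrichment none (0) was higher, with 1 at an unadjusted p under 0.05 in edgeR. DESeq2 gave 7, 15, 4 lower in male total mRNA, and 0, again with 1 unadjusted. Library totals gave 14 lower in male TRAP, 1 lower in female TRAP and 1 higher in the sex difference, and TMM within each sex gave 1 and 1 for these last 2. Without a filter 13 were lower in male TRAP than in total mRNA, and with the replicate block, which pairs lysates, also 13. Without male TRAP replicates 1 and 5, 15 were lower than in total mRNA and 1 lower than in female TRAP. At a threshold of 0.2, 14 were lower in male TRAP and 6 in female TRAP than in total mRNA, 7 lower in male than in female TRAP, and 7 higher in the sex difference. Leaving out overlapping records, 5 were lower in it. With the 3′-most record alone, 1 was lower in male than in female TRAP and 5 in male total mRNA, and Oseg1 was at 0.45 in male TRAP against total mRNA, where its gene sum gave -0.24 (not called); the cause was not tested.

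For exon records with no filter, 17 members had a record higher in male TRAP than in total mRNA, 26 higher and 5 lower in female TRAP, 22 higher and 2 lower in male than in female TRAP, and 22 and 7 in total mRNA. At 0.05 in the exact test, 0 were higher and 0 lower in female TRAP, and 0 lower in male than in female TRAP, as with the quasi-likelihood test; none of these had an unadjusted p under 0.05. Without male TRAP replicates 1 and 5, 1 was higher and 0 lower in male than in female TRAP.

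Leaving out 1 library at a time, gene counts higher and lower were 9 to 11 and 7 to 14 in male TRAP against total mRNA, 10 to 14 and 1 to 5 in females, 15 to 16 and 0 to 5 in male against female TRAP (0 without male TRAP replicate 6), 15 to 16 and 7 to 9 in total mRNA, and 3 to 6 and 7 to 11 in the sex difference. Exon record counts were 3 to 4 and 10 to 12, 0 to 1 and 1 to 3, 5 to 15 and 0 to 1, and 2 to 16 and 1 to 3. The replicate block changed no other count by over 1.5 times. Same-numbered males and females did not pair, with r from -0.31 to 0.09.

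Depth limits BBS1, Arl6, Mks1, fd3F, nan, female gudu and female Cby most. Reads of B9d2 and tectonic, and most of those of Cby, cannot be divided from those of the overlapping gene.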
